A study of Mus musculus with 8 samples.

Results

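The genes described here are 10 markers of liver sinusoidal endothelial cells, Stab1, Stab2, Lyve1, Clec4g, Oit3, Pecam1, Kdr, Dnase1l3, Fcgr2b and Gpr182, in the livers of furan-treated and vehicle-treated mice. They were chosen by name as established markers, not by their values in these arrays, although earlier results of the same arrays were known when the list was made. All 10 were found on the array through the RefSeq accession of a probe, and they are 10 of the 24921 genes or transcripts tested. Kdr had 2 probes and the other 9 genes had 1 each. Every one of these probes was well above background on all 8 arrays.

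The study measured total RNA of fresh-frozen liver from female B6C3F1 mice on 8 one-colour Agilent arrays of a single slide. The furan group, 4 animals numbered 41, 42, 43 and 44, received furan in corn oil by gavage at 8 mg per kg body weight for 21 days. The vehicle group, 4 animals numbered 2, 3, 4 and 6, received corn oil alone. Mice were 5 to 6 weeks old at purchase and had at least 7 days to acclimatise, and their livers were collected 4 hours after dosing ended. Furan, a volatile ring compound that arises in heated foods, damages the liver of rodents and causes tumours in it. Whole liver is a mixture of cells, so fewer endothelial cells and less of a transcript in each cell cannot be told apart here.

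Sinusoidal endothelial cells line the smallest blood channels of the liver. They are perforated by open pores, lack an ordinary basement membrane, and take up waste from the blood through scavenger, lectin and Fc receptors. They also make signals such as Wnt ligands and Bmp2 that act on neighbouring hepatocytes. When they lose this specialised state they take on features of ordinary capillaries, a process called capillarization.

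Upstream windows of 300 bases, from 250 before to 50 after the annotated gene start, were at hand from RefSeq (GRCm38.p6) for 5 of the 10 genes, namely Stab1, Stab2, Clec4g, Kdr and Fcgr2b. The windows of both stabilin genes and of Clec4g are shown because these 3 hold the letters AGGAAG, searched on both strands and overlaps allowed, which contain the core of the motif of ETS factors, a transcription factor family that many endothelial genes depend on. The matches are in capitals, CTTCCT being the same letters on the other strand, and each sequence reads 5′ to 3′ along its gene's strand, which is the minus strand for all of them.
Stab1 window, chr14:31168592-31168891: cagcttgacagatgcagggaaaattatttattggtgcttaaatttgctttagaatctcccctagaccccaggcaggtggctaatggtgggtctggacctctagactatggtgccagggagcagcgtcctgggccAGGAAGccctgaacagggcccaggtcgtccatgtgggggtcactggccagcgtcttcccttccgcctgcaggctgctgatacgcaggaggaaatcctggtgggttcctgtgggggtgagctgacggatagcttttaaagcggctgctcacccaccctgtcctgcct
Stab2 window, chr10:87007893-87008192: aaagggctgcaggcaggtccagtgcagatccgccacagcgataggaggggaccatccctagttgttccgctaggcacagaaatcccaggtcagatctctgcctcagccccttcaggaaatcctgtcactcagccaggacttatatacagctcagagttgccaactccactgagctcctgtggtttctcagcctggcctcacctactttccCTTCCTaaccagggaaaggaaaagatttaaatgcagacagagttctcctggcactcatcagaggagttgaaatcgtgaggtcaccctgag
Clec4g window, chr8:3720602-3720901: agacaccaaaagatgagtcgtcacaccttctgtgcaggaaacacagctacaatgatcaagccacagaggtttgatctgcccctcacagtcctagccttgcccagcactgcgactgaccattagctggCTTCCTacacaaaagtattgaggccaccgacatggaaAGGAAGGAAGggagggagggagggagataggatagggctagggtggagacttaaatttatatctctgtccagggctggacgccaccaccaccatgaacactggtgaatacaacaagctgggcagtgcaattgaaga
The letters begin 116 bases before the gene start in Stab1, 40 bases before it in Stab2 and 123, 86 and 82 bases before it in Clec4g, where the last 2 matches overlap. They occur in 35.4% of all 32851 such windows. The letters AGATAA, of the GATA motif, and AACAAT, of the SOX motif, searched in the same way, were in 0 of the 5 windows, against 11.2% and 10.7% of all windows. These matches describe the letters only and say nothing about binding.

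Between 55.1% and 69.4% of the probe spots were well above background on 7 arrays, and 86.2% on the array of vehicle replicate 2, which stood apart. Limma's array weights were 0.223 for that array and 0.836 to 1.77 for the other 7. That array also had the lowest vehicle value for 7 of the 10 markers. Without it the log2 fold change, furan minus vehicle, was -0.34 for Stab1, -0.51 for Stab2, -0.056 for Lyve1, -0.24 for Clec4g, -0.23 for Oit3, -0.35 for Pecam1, -0.23 for Kdr, -0.26 for Dnase1l3, -0.21 for Fcgr2b and -0.30 for Gpr182, and 0 of the 10 passed the test used below (limma adjusted p from 0.0766 to 0.785). The 12 hepatocyte markers that were tested, such as Alb, lay above the 75th percentile of the array on all 8 arrays. Each level below is a log2 signal from which the array's own 75th percentile was subtracted, and a difference is furan minus vehicle. Levels of different probes are not comparable, so each level is compared only between arrays. Other ways of processing are named where they end a call or turn a direction: shifting each array by its median instead, no shift at all, quantile normalization, normexp (a model-based background correction), array weights (which count noisy arrays less), trend and robust (limma's variance options), and stricter or no filters on dim probes.

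In the comparison of furan with vehicle, 0 of the 10 markers passed the test (limma, Benjamini-Hochberg adjusted p under 0.05 over all features), where 4.18% of all features passed. At an unadjusted p of 0.05 it was 2 of 10, both lower in furan, against 11.5% of all features that were lower at that level. At an adjusted p under 0.10 it was the same 2, against 3.98% of all features lower at that level. These 2 were Stab2, a scavenger receptor gene, and Pecam1, an adhesion molecule gene. For both of them, and for none of the other 8, the 4 furan arrays lay below the 4 vehicle arrays, as they did for 7.36% of all features. The median log2 fold change of the 10 markers was -0.19, against -0.09 over all features and -0.0091 over the 15070 features with a symbol. Values for 9 of the 10 were below 0, as they were for 60.2% of all features and for 7704 of the 15070 features with a symbol. With each array shifted to its median, 0 of the 10 were below 0 and the median of all features was 0.39. The median log2 spot signal was 7.03 on the array of vehicle replicate 2 and 5.02 to 5.59 on the others. With the median shift but without that array, 9 of the 10 were again below 0. Relative to the median of all features, 9 of the 10 markers lay below it, as did 6042 of the 15070 features with a symbol. Without the filter on dim probes 4 of the 10 did, the median of all features being -0.24 there.

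**Figure D1:**
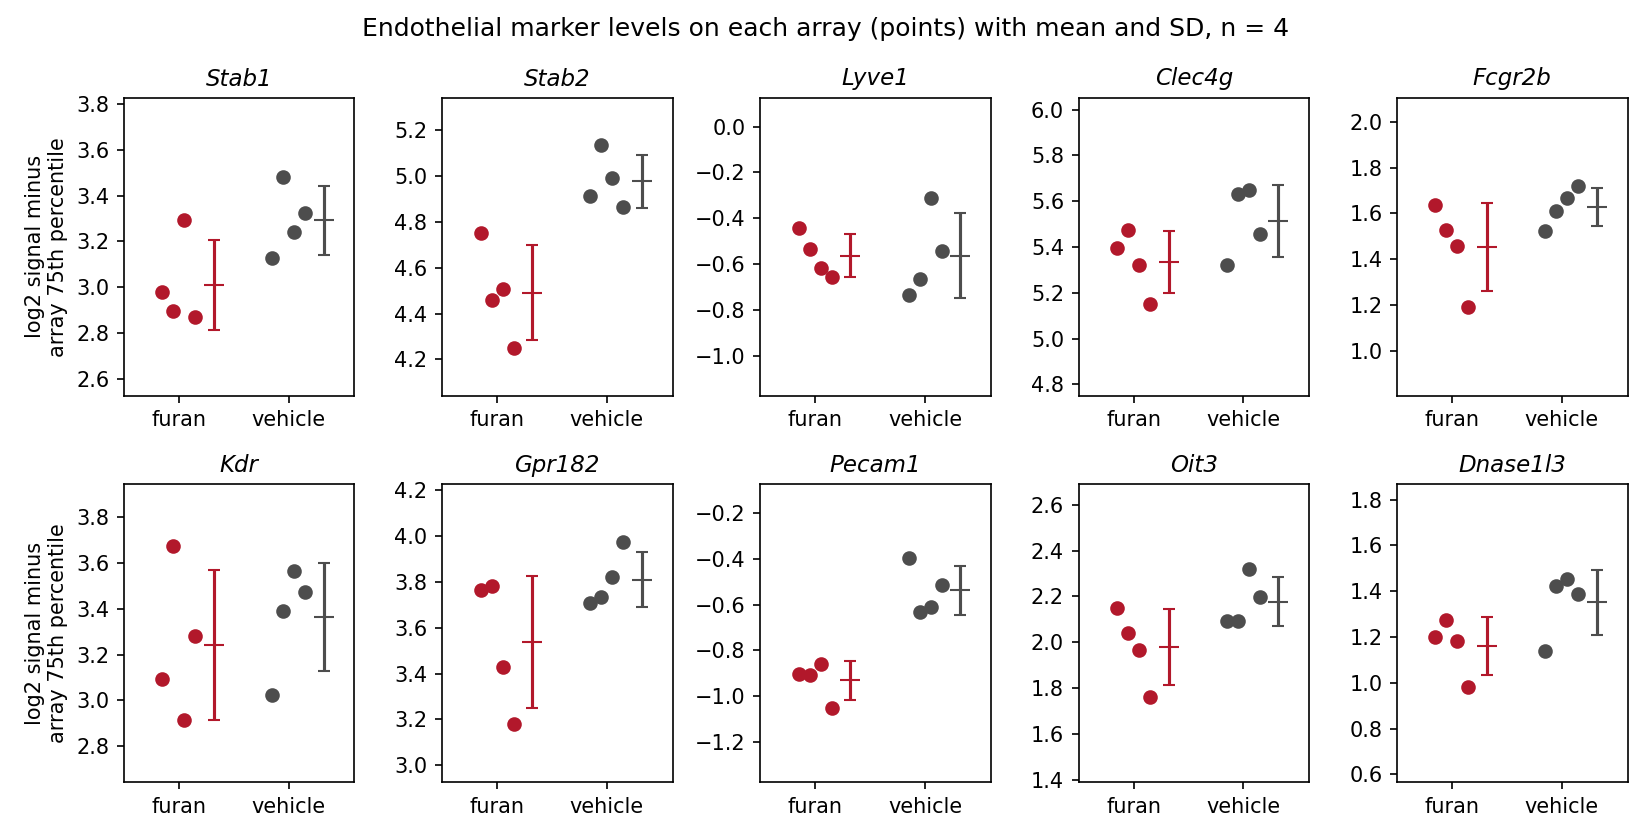
Level of each of the 10 markers on each array, as log2 signal minus the 75th percentile of the array, with furan left and vehicle right in each panel. Points are the 4 animals of a group, in the order of their numbers, and bars give the mean and SD. The groups separate for Stab2 and Pecam1 and overlap for the other 8 markers.

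Stabilin-1 and stabilin-2, the products of Stab1 and Stab2, are large related scavenger receptors that clear modified proteins and matrix breakdown products from blood, and stabilin-2 is the main receptor for hyaluronan uptake in the liver sinusoid. The Stab2 level was 4.75, 4.46, 4.51 and 4.25 in furan animals 41, 42, 43 and 44, against 4.91, 5.14, 4.99 and 4.87 in vehicle animals 2, 3, 4 and 6. The highest furan value was below the lowest vehicle value. The mean level was 4.49 ± 0.21 in furan and 4.98 ± 0.12 in vehicle (SD, n = 4 each), a log2 fold change of -0.48 ± 0.12 (SE, 95% interval -0.77 to -0.20), or 1.40-fold lower. This did not pass (limma adjusted p = 0.0687). Among all features, 17.7% had a lower log2 fold change than Stab2. Within the 4 columns of the slide, which hold 1 furan and 1 vehicle array each, the Stab2 difference ran from -0.75 to -0.16. Its sign there adds nothing, because groups that do not overlap give a difference below 0 in any pairing.

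Whether Stab2 passes turned on the processing. In the authors' value table its log2 fold change was -0.60 (limma adjusted p = 0.0166), with furan arrays at 13.32, 13.10, 13.00 and 12.9 for animals 41, 42, 43 and 44, against 13.77, 13.70, 13.74 and 13.50 in vehicle animals. It also passed with normexp, quantile normalization, the shift by the brightest 25% of probes, the filter on all 8 arrays, and trend and robust (limma adjusted p = 0.0155, 0.0292, 0.0321, 0.0467 and 0.0269). More of all features passed in several of these settings too, as given at the end. Stab2 did not pass when any 1 of the 8 arrays was left out (limma adjusted p of 0.0754 to 0.153). Nor did it pass with the slide column as a block (limma adjusted p = 0.197), where 0 of all features passed. With the median shift its log2 fold change was 0.00037 (0.999).

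The Stab1 level was 2.98, 2.89, 3.30 and 2.87 in the furan animals, against 3.13, 3.48, 3.24 and 3.32 in the vehicle animals. Furan animal 43 lay among the vehicle animals, and the other 3 furan animals lay below all of them. The log2 fold change was -0.28 ± 0.13 (SE, limma adjusted p = 0.222), with a 95% interval of -0.58 to 0.01. Lyve1, a hyaluronan receptor of lymphatic and sinusoidal endothelium, had the estimate nearest to 0. Its level was -0.44, -0.54, -0.62 and -0.66 in the furan animals, against -0.74, -0.66, -0.31 and -0.54 in the vehicle animals. The furan values lay inside the vehicle range, and the log2 fold change was 0.00 ± 0.11 (SE, limma adjusted p = 0.996), with a 95% interval of -0.26 to 0.26. That interval leaves room for a change of about the size estimated for the median marker.

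Clec4g encodes a C-type lectin of the sinusoidal surface, and Fcgr2b encodes the inhibitory Fc receptor through which these cells take up small immune complexes. The Clec4g level was 5.39, 5.47, 5.32 and 5.15 in the furan animals, against 5.32, 5.63, 5.65 and 5.46 in the vehicle animals. The groups overlapped, with vehicle animal 2 level with furan animal 43. The Clec4g log2 fold change was -0.18 ± 0.11 (SE, 95% interval -0.44 to 0.08, limma adjusted p = 0.347), and -0.12 without furan replicate 44. The Fcgr2b level was 1.64, 1.53, 1.46 and 1.19 in the furan animals, against 1.52, 1.61, 1.67 and 1.72 in the vehicle animals. Furan animal 44 stood lowest and furan animals 41 and 42 lay within the vehicle range. The Fcgr2b log2 fold change was -0.18 ± 0.11 (SE, 95% interval -0.44 to 0.09, limma adjusted p = 0.351), and -0.089 without furan replicate 44. The Fcgr2b probe is printed 10 times on each array, and its spots on 1 array had an SD of 0.039 to 0.089, against an SD of 0.19 between furan animals and 0.083 between vehicle animals.

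Kdr encodes vascular endothelial growth factor receptor 2, and Gpr182 encodes an atypical chemokine receptor of sinusoidal and lymphatic endothelium. The brighter Kdr probe had a level of 3.09, 3.67, 2.91 and 3.28 in the furan animals, against 3.02, 3.39, 3.56 and 3.47 in the vehicle animals. Its highest and lowest values were both in furan animals. The log2 fold change was -0.12 ± 0.19 (SE, 95% interval -0.56 to 0.31, limma adjusted p = 0.688), the widest interval of the 10. It was -0.073, -0.27 and -0.012 without furan replicates 41, 42 and 43, and -0.23 and -0.055 without vehicle replicates 2 and 4. The second Kdr probe, printed 10 times on each array, had a level of 2.68, 2.67, 2.62 and 2.51 in the furan animals, against 2.48, 2.58, 2.90 and 2.86 in the vehicle animals. All of its furan values lay within the vehicle range. It gave a log2 fold change of -0.08 ± 0.12 (SE, limma adjusted p = 0.656 when each probe was tested on its own), so both probes had intervals that span 0.

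The Gpr182 level was 3.76, 3.78, 3.43 and 3.18 in the furan animals, against 3.71, 3.73, 3.82 and 3.97 in the vehicle animals. Furan animals 43 and 44 lay below all vehicle animals, while 41 and 42 lay among them. The Gpr182 log2 fold change was -0.27 ± 0.15 (SE, 95% interval -0.62 to 0.08, limma adjusted p = 0.304), and -0.15 without furan replicate 44.

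Pecam1 encodes CD31, an adhesion molecule at the junctions of endothelial cells that platelets and leukocytes also carry. Its level was -0.90, -0.91, -0.86 and -1.05 in the furan animals, against -0.40, -0.63, -0.61 and -0.51 in the vehicle animals. All furan values lay below all vehicle values, and the highest value was that of vehicle animal 2. The mean was -0.93 ± 0.083 in furan and -0.54 ± 0.11 in vehicle (SD, n = 4 each), a log2 fold change of -0.39 ± 0.091 (SE, 95% interval -0.60 to -0.18), or 1.31-fold lower. This did not pass (limma adjusted p = 0.0550), and 22.8% of all features had a lower log2 fold change. Without vehicle replicate 2 it was -0.35 (limma adjusted p = 0.0766), and over the 8 fits without 1 array the adjusted p ranged from 0.0766 to 0.130. Pecam1 passed with trend and robust, with array weights and with the filter on all 8 arrays (limma adjusted p = 0.0434, 0.0313 and 0.0389). More of all features passed in those settings as well. Pecam1 did not pass in the authors' value table, where its log2 fold change was -0.26 (limma adjusted p = 0.0677). Nor did it pass with the slide column as a block (limma adjusted p = 0.182), where 0 of all features passed. Within the 4 slide columns the Pecam1 difference ran from -0.51 to -0.23, all below 0 as the lack of overlap requires. With the median shift its log2 fold change was 0.092.

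Oit3 encodes a secreted protein with a zona pellucida domain, and Dnase1l3 encodes a secreted nuclease that digests DNA in chromatin. The Oit3 level was 2.15, 2.04, 1.97 and 1.76 in the furan animals, against 2.09, 2.09, 2.32 and 2.20 in the vehicle animals. Furan animal 41 lay within the vehicle range and the other 3 below it. The Oit3 log2 fold change was -0.20 ± 0.11 (SE, 95% interval -0.45 to 0.06, limma adjusted p = 0.298), and -0.12 without furan replicate 44. The Dnase1l3 level was 1.20, 1.28, 1.18 and 0.98 in the furan animals, against 1.14, 1.42, 1.45 and 1.39 in the vehicle animals. Only vehicle animal 2 reached into the furan range. The Dnase1l3 log2 fold change was -0.19 ± 0.11 (SE, 95% interval -0.44 to 0.06, limma adjusted p = 0.304). It was -0.26 without vehicle replicate 2 (limma adjusted p = 0.167). That the groups no longer overlapped there follows from leaving out the only vehicle array that did.

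**Figure D2:**
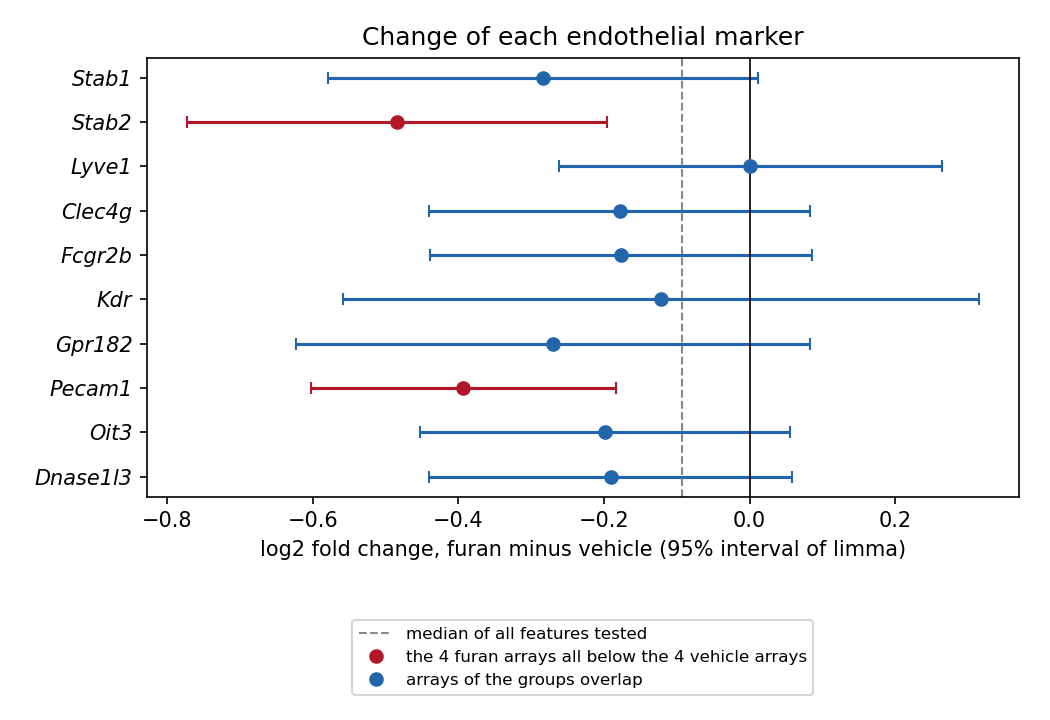
Log2 fold change of each marker, furan minus vehicle, on the x axis, with the 95% interval of limma as a bar. Stab2 at -0.48 and Pecam1 at -0.39 lie farthest from the median of all features at -0.09, drawn as a dashed line, and the intervals of the other 8 markers include 0.

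The markers varied together within the groups more often than in opposite directions. After each group's mean was taken out, 36 of the 45 pairs of markers had a positive Pearson r over the 8 arrays, with a median of 0.46 and a range of -0.51 to 0.94, given as a description because all markers share the array and its scaling. Clec4g and Dnase1l3 (0.94), Fcgr2b and Gpr182 (0.93) and Oit3 and Fcgr2b (0.91) were the closest pairs, and Pecam1 and Kdr were the farthest apart (-0.51). Furan animal 44 was the lowest furan animal for 9 of the 10 markers, the exception being Kdr. Set against the mean of the vehicle animals, the median marker was at -0.13, -0.088, -0.20 and -0.42 in furan animals 41, 42, 43 and 44, and at -0.14, 0.0039, 0.070 and 0.028 in vehicle animals 2, 3, 4 and 6. By this measure vehicle animal 2 lay among the furan animals. The median log2 fold change of the 10 markers was -0.25 without vehicle replicate 2 and -0.13 without furan replicate 44.

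Outside the list, the 5 genes with a symbol whose levels most resembled the mean of the 10 markers over the 8 arrays were Pgm5, Oga, Anks1, Ido2 and Man1a2. Their Pearson r was 0.98, 0.96, 0.96, 0.95 and 0.94 among 15010 genes compared, given as a description of 8 arrays that share their scaling. These values depend on the processing: with the mean of a gene's probes in place of the brightest one, r was -0.16 for Man1a2, and with quantile normalization it was 0.33 for Pgm5. None of the 5 is in the endothelial lists used here.

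**Figure D3:**
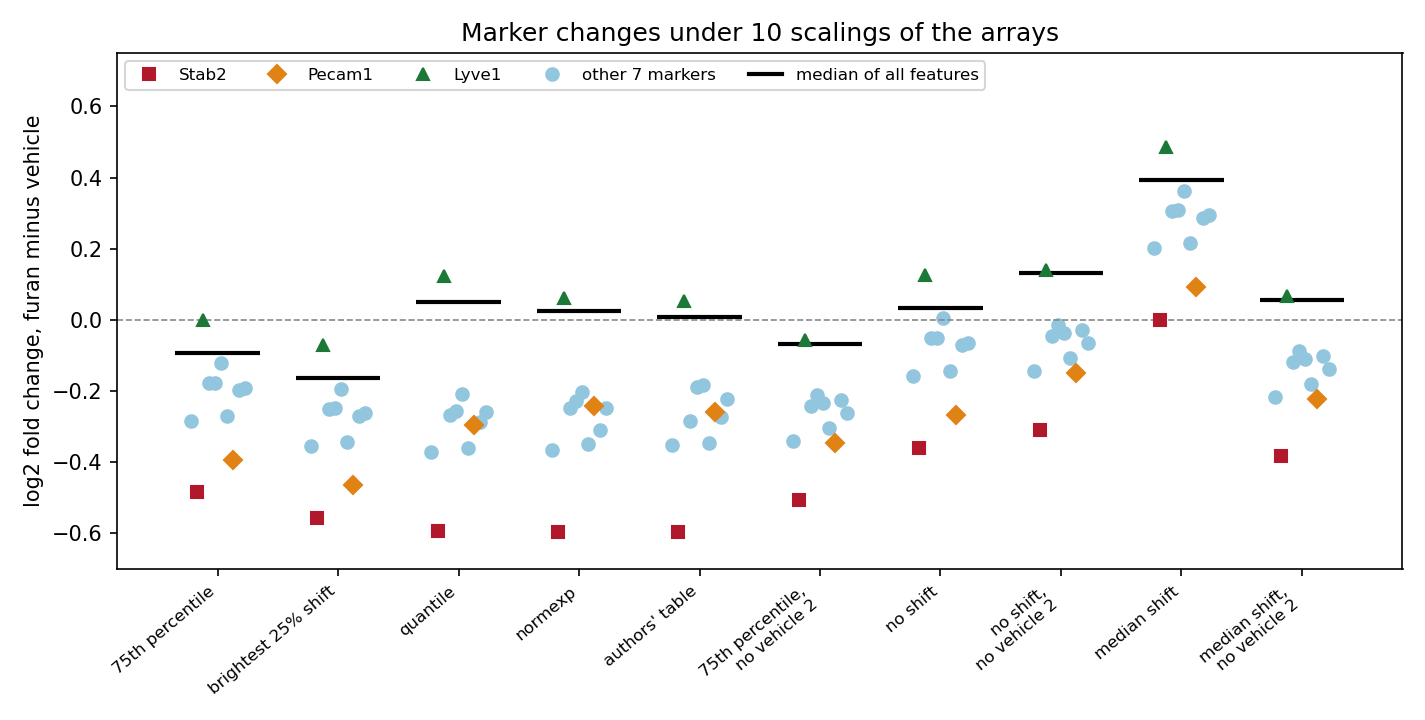
Log2 fold change of the 10 markers, furan minus vehicle, under 10 ways of scaling the arrays, with the median of all features as a black bar. Stab2 is the lowest and Lyve1 the highest of the 10 in each scaling, and with the median shift all 10 and the bar, at 0.39, lie above 0.

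The wider endothelial programme was described with 7 further lists, 124 genes of which 118 were tested. Of these, 3 passed, 2 higher and 1 lower, all in lists of signalling genes, where 4.18% of all features passed, 2.87% higher and 1.31% lower. Counts at an unadjusted p under 0.05 are given for each list below. At that level 5931 of all 24921 features passed in either direction, and 11.5% of all features were lower. The 118 genes' median log2 fold change was -0.10. The furan arrays lay below the vehicle arrays for 14 of the 118 and above them for 9, against 7.36% and 10.8% of all features. These directions hold for the 75th percentile scaling, and with the median shift the median of each list was above 0.

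Genes shared by all endothelium had the list median closest to that of the markers. Of 25 such genes, 0 passed and 4 had an unadjusted p under 0.05, all lower in furan, with a median log2 fold change of -0.19. Tek, the angiopoietin receptor gene, was at -1.52, -1.50, -1.52 and -1.65 in the furan animals, against -1.09, -1.33, -1.21 and -1.16 in the vehicle animals. The groups did not overlap, and the log2 fold change was -0.35 ± 0.086 (SE, limma adjusted p = 0.0630). The Tek log2 fold change was -0.10 with quantile normalization, -0.12 with normexp and -0.17 in the authors' value table. For Emcn, a sialomucin gene, it was -0.31 ± 0.10 (SE, limma adjusted p = 0.119), and 0.12 with quantile normalization. Cdh5, which encodes the junction protein VE-cadherin, had a log2 fold change of 0.05 ± 0.12 (SE, limma adjusted p = 0.783, named after its value was seen). The SE was larger than the estimate, so the direction for Cdh5 is not resolved. Cldn5 and Esam, junction genes of the same list, were at -0.19 and -0.10 (limma adjusted p = 0.276 and 0.702). Both were below 0, as Pecam1 was, and were also named after their values were seen. Differences between these junction genes were not tested.

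Of 19 other genes typical of sinusoidal endothelium that were tested, 0 passed (3 lower and 1 higher at an unadjusted p under 0.05), with a median of -0.06. Fgd5, a guanine nucleotide exchange factor gene, had a log2 fold change of -0.72 ± 0.22 (SE, limma adjusted p = 0.103). Its probe is dim, with mean levels of -4.11 in furan and -3.39 in vehicle. The Fgd5 estimate was 0.031 with quantile normalization, -0.0070 with normexp and -0.021 in the authors' value table. Cd36, a fatty acid and scavenger receptor gene that hepatocytes and macrophages also express, was at 0.076, -0.30, -0.21 and -0.26 in the furan animals, against -0.85, -0.59, -0.36 and -0.44 in the vehicle animals. The furan values all lay above, at a log2 fold change of 0.39 ± 0.14 (SE, limma adjusted p = 0.146).

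Genes that mark capillaries and larger vessels, some of which are gained in capillarization, had 0 of 17 past the threshold (3 lower and 1 higher at an unadjusted p under 0.05) and a median of 0.00. Lama4, a basement membrane laminin gene, was at -0.78, -0.98, -0.73 and -0.95 in the furan animals, against -0.40, -0.58, -0.39 and -0.39 in the vehicle animals, a log2 fold change of -0.42 ± 0.096 (SE, limma adjusted p = 0.0529). Selp, which encodes P-selectin, had a log2 fold change of -0.40 ± 0.095 (SE, limma adjusted p = 0.0583) with no overlap between groups. Both are dim, and Selp was at 0.068 with quantile normalization and 0.0060 with normexp. The capillarization markers Cd34, Plvap and Vwf had log2 fold changes of 0.08, 0.17 and -0.14 (limma adjusted p = 0.763, 0.325 and 0.481), named after their values were seen. Ly6a was the gene of this list that was higher at an unadjusted p under 0.05, at 0.68 ± 0.28 (SE, limma adjusted p = 0.196). Esm1, also dim, was among the lower ones at -1.19 ± 0.43 (SE, limma adjusted p = 0.153).

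Of 15 genes for endothelial Wnt signals and zones of the lobule, 0 passed (2 lower at an unadjusted p under 0.05), with a median of -0.10. Cdh13, a cadherin gene, had a log2 fold change of -0.36 ± 0.12 (SE, limma adjusted p = 0.133) and Dll4, a Notch ligand gene, one of -0.80 ± 0.33 (0.190), and of -0.51 without vehicle replicate 2. Of 11 genes for leukocyte adhesion 0 passed (2 higher and 1 lower at an unadjusted p under 0.05), with a median of -0.13. Icam1, an adhesion molecule gene that inflamed endothelium and hepatocytes express, was at -1.0, -0.99, -0.56 and -1.08 in the furan animals, against -1.22, -1.61, -1.42 and -1.55 in the vehicle animals. Its furan values all lay above, at a log2 fold change of 0.54 ± 0.14 (SE, limma adjusted p = 0.0761). For Vcam1, a similar adhesion molecule gene, it was 0.58 ± 0.17 (SE, limma adjusted p = 0.0954) with its brightest probe and 0.19 with its other one (0.598), and for Cd99l2, a relative of the adhesion gene Cd99, it was -0.33 ± 0.092 (0.0837).

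Of 17 genes of the VEGF, angiopoietin and Notch systems, 1 rose and 0 fell (3 higher and 4 lower at an unadjusted p under 0.05), with a median of -0.04. The Notch ligand gene Dll1 was at -1.35, -1.44, -1.70 and -1.67 in the furan animals, against -2.32, -2.07, -2.08 and -2.09 in the vehicle animals. It rose by 0.60 ± 0.11 on the log2 scale (SE, limma adjusted p = 0.0312), a call that held in only 1 of the 8 fits without 1 array, that without vehicle replicate 2. The adjusted p was 0.0871, 0.0885, 0.0662 and 0.0649 without furan replicates 41, 42, 43 and 44, and 0.0631, 0.0723 and 0.0751 without vehicle replicates 3, 4 and 6. It did not pass with the median shift, without a shift, with quantile normalization, normexp or the slide column as a block, without the filter, or in the authors' table (0.0646). Nrp2, a coreceptor gene for VEGF, had a log2 fold change of -0.60 ± 0.17 (SE, limma adjusted p = 0.0896) with its brightest probe and -0.33 with its other one. Vegfa, the main ligand of the Kdr receptor, had one of 0.03 (limma adjusted p = 0.898, named after its value was seen).

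Of 14 BMP signalling genes, 1 rose and 1 fell (4 higher and 1 lower at an unadjusted p under 0.05), with a median of 0.09. Bmper, which encodes a secreted protein that binds BMPs and was first described in endothelial precursors, was at -0.57, 0.092, -0.13 and -0.087 in the furan animals, against -1.55, -1.44, -1.76 and -1.76 in the vehicle animals. It rose by 1.45 ± 0.16 on the log2 scale (SE, limma adjusted p = 0.00653). It passed in all 8 fits without 1 array and with the slide row as a block (limma adjusted p = 0.0149). It did not pass with the slide column as a block (limma adjusted p = 0.108), where 0 of all features passed. Smad9, a transducer of BMP signals, was at -1.51, -1.33, -1.43 and -1.86 in the furan animals, against -0.37, -0.58, -0.92 and -0.11 in the vehicle animals. It fell by 1.04 on the log2 scale (SE 0.19, limma adjusted p = 0.0302), and the call held in only 1 of the 8 fits without 1 array, that without vehicle replicate 4. The adjusted p was 0.0870, 0.0674, 0.0787 and 0.0762 without furan replicates 41, 42, 43 and 44, and 0.0520, 0.0641 and 0.0676 without vehicle replicates 2, 3 and 6. It did not pass without the filter, with the column block, with the median shift or without a shift. These 2 genes are not particular to endothelium, and their cell of origin in these livers is not known from whole tissue.

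**Figure D4:**
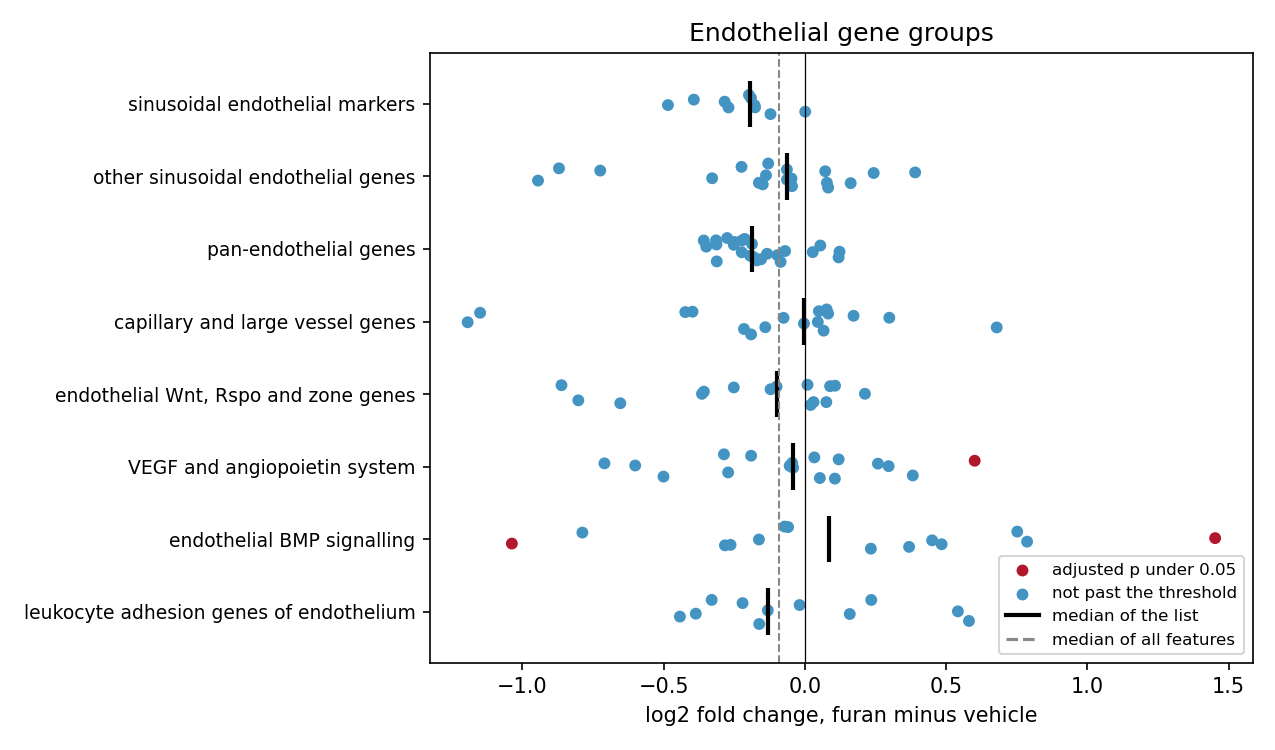
Log2 fold change, furan minus vehicle, of each tested gene in the marker list and in the 7 further endothelial lists, with list medians as black bars. The marker and pan-endothelial lists have the lowest medians, -0.19 each, against -0.09 for all features (dashed), and only Dll1, Bmper and Smad9 passed the test (red).

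Several markers are also made by other cells, so the markers of those cells are given beside them, and their part in the marker values was not tested. Some macrophages express Stab1 and Lyve1, B cells express Fcgr2b, and platelets carry Pecam1. The counts at an unadjusted p under 0.05 stand beside 5931 of all 24921 features in either direction, and 11.5% of all features that were lower. Of 13 Kupffer cell markers 0 passed (0 at an unadjusted p under 0.05), with a median log2 fold change of -0.12, and their summed linear level relative to the 75th percentile was 196 to 244 on furan arrays and 169 to 386 on vehicle arrays. Of 7 B cell markers 0 passed (2 lower at an unadjusted p under 0.05), with a median of -0.28 and a summed level of 1.96 to 2.36 on furan arrays and 2.30 to 2.90 on vehicle arrays. Of 5 platelet markers 0 passed (0 at an unadjusted p under 0.05), with a median of -0.45 and sums of 0.979 to 1.44 on furan arrays and 1.08 to 2.10 on vehicle arrays. With quantile normalization the medians of the B cell and platelet lists were 0.096 and 0.21.

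The summed level of the 10 sinusoidal markers was 89.5 to 111 on furan arrays and 110.7 to 131 on vehicle arrays. Each such sum adds linear levels over probes, so the brightest probes of a list lead it. Among the markers these were Clec4g and Stab2, with mean vehicle log2 levels of 5.51 and 4.98. For stellate cells and fibroblasts, 0 of 14 markers passed (4 higher at an unadjusted p under 0.05), with a median of 0.09 and sums of 270 to 308 in furan and 273 to 311 in vehicle. For hepatocytes, 0 of 12 passed (2 higher at an unadjusted p under 0.05), with a median of -0.04 and sums of 7607 to 8407 in furan and 7199 to 9707 in vehicle. For exocrine pancreas, 0 of 4 passed (3 lower at an unadjusted p under 0.05), with a median of -0.48 and sums of 7.629 to 10.97 in furan and 10.98 to 14.69 in vehicle. At that unadjusted level 5931 of all 24921 features passed in either direction, and 11.5% of all features were lower. Whether these lists differ from all features was not tested. Lymphatic endothelial markers (4 tested), T and NK cell markers (8), bile duct markers (7) and erythroid markers (4) had 0 past the threshold as well, and 0 at an unadjusted p under 0.05, with medians of 0.05, -0.13, -0.12 and -0.09. Among markers of these other cells, Foxc2 of lymphatic endothelium and Pnlip of pancreas were well above background on none of the 8 arrays.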

How the data were processed

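Per the file headers, each array's file gives 1-colour spot intensity extracted by Agilent Feature Extraction 11.0.1.1, background-subtracted and detrended; the number of arrays limits precision. The authors also deposited processed values on a log2 scale, with medians of 6.53 to 6.74 per array. Their centring and method are not given in the sources used here, and each column tracked its array's log2 median spot signal (r of 0.998 to 1.00 over probes, lowest for vehicle replicate 2).

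Of 62976 spots, 3671 controls were left out, as were 128 to 315 outlier-marked spots per array. Log2 processed intensity was shifted to the array's 75th percentile and spots of a probe were averaged. Probes well above background on at least 4 of 8 arrays were kept (33848 of 55681), and the brightest kept probe stood for a gene. Symbols came from RefSeq accessions through GRCm38.p6 (27235 of 28685 probes matched). The test was limma's lmFit with eBayes, version 3.58.1 (R 4.3.3), 2-sided, with 1 group term, since the labels name a randomized block design without its blocks. The fit was tested on simulated data. Nothing in the labels beyond separate animals describes the replicates.

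The markers, lists and tests were chosen with earlier results of these data known. Text names all 10 markers, genes with the smallest p in each endothelial list, the 5 genes most like the markers, and genes said to be named after their values were seen. Alternatives were other scalings, normexp (offset 50, on median intensities), the authors' table, filters, probe rules, variance models, the slide's row or its column as a block, leaving out each array, and 2 scalings without vehicle replicate 2, added after the data were seen. Plots used matplotlib 3.10.9.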

Additional observations from a re-analysis of the deposited data

Results flagged for a closer look

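Of 52 sets of 4 arrays checked (the markers, the second Kdr probe and the named genes of the endothelial lists, in each group), 3 held an array far from the other 3 by Dixon's criterion, and chance alone flags about 1 in 20 such sets. None was a marker. Tek was at -1.65 in furan animal 44, below the other furan animals. Lama4 was at -0.58 in vehicle animal 3, below the other vehicle animals. Dll1 was at -2.32 in vehicle animal 2, below the other vehicle animals.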

How the results depend on the processing

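No paired analysis was possible because the groups share no replicate numbers, and the slide column, which holds 1 array of each group, was used as a block instead. As reported, limma called 1041 features, 0 of the 10 markers and 3 genes of the endothelial lists. It called 163 features without the filter, 261 without a shift, 86 with the median shift, 1733 with the filter on all 8 arrays, 1668 in the authors' table, 2001 with trend and robust, 2036 with array weights, 2652 at an adjusted p under 0.10 and 0 with the slide column as a block (4723 at an unadjusted p under 0.05). Without vehicle replicate 2 it called 337 with the median shift and 398 without a shift. Over the fits without 1 array it called 195 to 927. With the slide row as a block it called 810 features and 0 of the 10 markers. Bmper, Dll1 and Smad9 passed there (limma adjusted p = 0.0149, 0.0293 and 0.0447). Of the 1041, 714 were higher and 327 lower, and the split was 85 to 1 with the median shift, 230 to 31 without a shift and 693 to 647 with the shift by the brightest 25% of probes. Without vehicle replicate 2 it was 299 to 38 and 370 to 28 for the first 2 of these.

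Of the markers, 1 passed with quantile normalization, the shift by the brightest 25% of probes, normexp and the authors' table (Stab2 in each) and with array weights (Pecam1), and 2 (both of these) with the filter on all 8 arrays, with trend and robust and at an adjusted p under 0.10. In the fits without 1 array, 0 passed. At an adjusted p under 0.10, 10.6% of all features passed. The calls over all features, given above, also rose in the authors' table, with the shift by the brightest 25% of probes, with the filter on all 8 arrays, with trend and robust and with array weights. The number of all features passing with quantile normalization and with normexp is not given here, so the Stab2 passes there have no background beside them. The median log2 fold change of the markers was 0.29 with the median shift, -0.068 without a shift and -0.054 without a shift and without vehicle replicate 2, against -0.19 as reported, and -0.25 to -0.13 without 1 array. The median of all features was -0.09 as reported and 0.39 with the median shift, but 0.057 with the median shift and without vehicle replicate 2, where 9 of the 10 markers were below 0. The markers stayed below the median of all features in at least 8 of 10 cases in every setting run except without the filter on dim probes, where 4 did. With the median shift the estimates were 0.20 for Stab1, 0.00037 for Stab2, 0.31 for Clec4g, 0.29 for Oit3, 0.092 for Pecam1, 0.36 for Kdr, 0.29 for Dnase1l3, 0.31 for Fcgr2b and 0.21 for Gpr182. Kdr was at 0.0043 without a shift, and Lyve1 at -0.071 with the brightest 25% of probes, -0.035 with array weights and -0.056 to 0.085 without 1 array. The cause was not tested.

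In the endothelial lists, 1 gene passed with the median shift (also without vehicle replicate 2), without a shift and without the filter, 7 with the brightest 25% of probes and with the filter on all 8 arrays, 6 with normexp, 8 with trend and robust, 9 with array weights, 11 at an adjusted p under 0.10, 0 with the column block and 1 to 3 without 1 array. The 11 were among 118 genes tested, where 10.6% of all features passed at an adjusted p under 0.10. The calls over all features, given above, also rose with the shift by the brightest 25% of probes, the filter on all 8 arrays, trend and robust and array weights. For normexp they are not given here. Whether the lists differ from all features was not tested. With the median shift the estimates were 0.14 for Tek, 0.17 for Emcn, 0.062 for Lama4, 0.087 for Selp, 0.13 for Cdh13 and 0.16 for Cd99l2. With quantile normalization they were 0.031 for Fgd5, 0.12 for Emcn and 0.068 for Selp, and with normexp 0.066 for Emcn and 0.0060 for Selp.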
